A study of Mus musculus with 23 samples.

Results

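The genes described are 34 mouse genes of fatty acid oxidation and PPAR signalling: the 3 PPAR receptors, the proteins that take up, bind, store and activate fatty acids, the carnitine shuttle, the enzymes of mitochondrial and peroxisomal beta-oxidation, and 4 further PPAR targets. They were chosen by symbol from a table of 54354 genes, and all 34 were found. The cells came from AKP-tdT organoids, which are cultures of intestinal tumour cells of the mouse that make the red protein tdTomato. They carried a Basp1-eGFP-DTR reporter and grew as tumours in the colon of mice. Digested tumours were sorted by flow cytometry into GFP-positive cells (11 libraries) and GFP-negative cells (12 libraries). Every library, GFP-negative ones included, is labelled with the genotype Basp1-GFP. Tumour cells grown from the organoids carry the reporter and the tumour alleles in either gate, while host cells, whose markers both gates held, need not carry them. The labels give no age, sex, strain, diet or number of mice, although the series title holds the letters HFD, and they do not say how many organoid lines were used or whether the sort also used tdTomato. The extraction text speaks of organoids as the source of RNA, while the design text speaks of tumours.

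Fatty acids reach the mitochondrial matrix as coenzyme A esters carried by carnitine, and each turn of beta-oxidation there removes an acetyl unit through a dehydrogenation, a hydration, another oxidation and a thiolysis. The electrons of the first step pass through the electron transfer flavoprotein to the respiratory chain, and peroxisomes run a related cycle for very long chains. The PPAR receptors bind DNA beside the RXR receptors, respond to fatty acids and switch on many of these genes. In the mouse intestine, PPAR-delta and PPAR-alpha activity and the oxidation of fatty acids have been linked to the function of stem and progenitor cells.

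PPAR and RXR receptors bind a direct repeat, in which the letters AGGTCA recur on the same strand after 1 letter of any kind. Because the members are discussed as PPAR targets, their promoters from RefSeq (mouse build GRCm38.p6, 250 bases before to 50 after the annotated start) were searched on both strands for this repeat with at most 2 mismatches in its 12 defined letters. The table held 33 promoters of 30 of the 34 members, and 6 of the 33 (18.2%) had a match, as had 1268 of all 32851 promoters (3.86%). The 6 matching stretches are shown on the strand of the gene:
Fabp1: TGACCTATGGCCT
Plin2: GGACCCCTGACCT
Cd36: TGGCCTCTGACTT
Slc25a20: AGGTGAAAGGTCG
Echs1: AGGTCACGGGTCC
Etfa: TTACCTTTGCCCT
The match of Fabp1 had 1 mismatch and the other 5 had 2. Those of Slc25a20 and Echs1 lie on the strand of the gene, starting 6 bases after and 83 bases before the start site, and the other 4 lie on the opposite strand, so they read as the reverse complement. For Fabp1 and Plin2, whose levels lay far apart in these cells, the 250 bases before the start site are given with the match in capitals. Fabp1 is at chr6:71199629-71199878 on the plus strand, and Plin2 is at chr4:86670060-86670309 on the minus strand.
Fabp1 upstream: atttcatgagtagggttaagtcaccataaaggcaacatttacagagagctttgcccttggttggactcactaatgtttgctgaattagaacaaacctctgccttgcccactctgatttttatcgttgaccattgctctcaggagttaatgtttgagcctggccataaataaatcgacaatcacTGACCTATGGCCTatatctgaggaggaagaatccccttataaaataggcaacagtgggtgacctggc
Plin2 upstream: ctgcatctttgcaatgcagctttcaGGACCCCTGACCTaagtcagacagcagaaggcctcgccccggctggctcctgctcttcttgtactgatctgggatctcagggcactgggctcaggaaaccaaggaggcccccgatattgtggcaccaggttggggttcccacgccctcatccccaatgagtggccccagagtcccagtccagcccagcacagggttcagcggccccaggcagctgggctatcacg
A match of letters describes the sequence and is no measurement of binding.

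Depth differed widely between libraries. Total counts had a lowest, median and highest value of 37125, 1418140 and 4238877 in GFP-positive libraries and 25458, 144334 and 2304316 in GFP-negative libraries, and 4 libraries were under 100000 (GFP-positive 4, GFP-negative 4, 5 and 12). Levels are given as CPM, a count divided by the library total and scaled to 1000000, and levels of different genes are compared as CPM per kilobase of exon. Of the 34 members, 16 to 33 had a count in a GFP-positive library (median 30) and 15 to 31 in a GFP-negative library (median 25.5), and in the 8 libraries of at least 1000000 counts this number was 30 to 33. A count of 0 allowed up to 3 counts, which is 0.708 to 80.8 CPM in a GFP-positive library and up to 118 CPM in a GFP-negative library. Basp1, the gene of the reporter, had 13.3, 51.3 and 108 CPM in GFP-positive libraries and 0, 27.7 and 83.8 CPM in GFP-negative libraries (lowest, median, highest), with a log2 fold change of 0.63 (edgeR, SE 0.38, Benjamini-Hochberg adjusted p = 0.997).

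All 8 epithelial markers were expressed, and their summed level was 2285 to 6028 CPM in GFP-positive libraries and 2306 to 6498 CPM in GFP-negative libraries. All 12 macrophage markers were detected in both groups, with a sum of 147 to 1131 CPM in 10 GFP-positive libraries, 32172 CPM in GFP-positive 3 and 424 to 6974 CPM in GFP-negative libraries. All 10 fibroblast markers were detected too, with sums of 0 to 2112 CPM in GFP-positive libraries and 148 to 8818 CPM in GFP-negative libraries. GFP-positive 3 therefore stood apart from its group, and results that it moves are given with and without it. Library numbers fall into 2 runs, called set 1 (5 GFP-positive and 6 GFP-negative libraries) and set 2 (6 of each), and 10 identifiers at the start of the library names held both populations.

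Per kilobase, the members ranged widely in level, with Etfb at the top and Ppara at the bottom. Etfb had a mean of 332 CPM per kilobase over the 23 libraries, ahead of Plin2 in 21 of 23 libraries. Plin2 (103) and Echs1 (71.3) followed, and their order was not stable, since Plin2 was higher in 13 libraries and Echs1 in 10. Acadl (59.7), Ucp2 (54.2), Etfa (44.7), Hadh (37.2), Hadhb (35.5), Acadvl (33.5), Acadm (31.4) and Acaa2 (31.0) came next. At the low end Pdk4 averaged 0.727, Ehhadh 0.279, Vnn1 0.246 and Ppara 0.120 CPM per kilobase. Acadl was higher than Ucp2 in 9 of 11 GFP-positive libraries and in 2 of 12 GFP-negative libraries, which was not tested. The ratio of Acadl to Ucp2 in pooled counts per kilobase was 1.31 in GFP-positive and 0.94 in GFP-negative libraries. This pair was picked from those compared, and how often other pairs do the same was not counted.

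**Figure D1:**
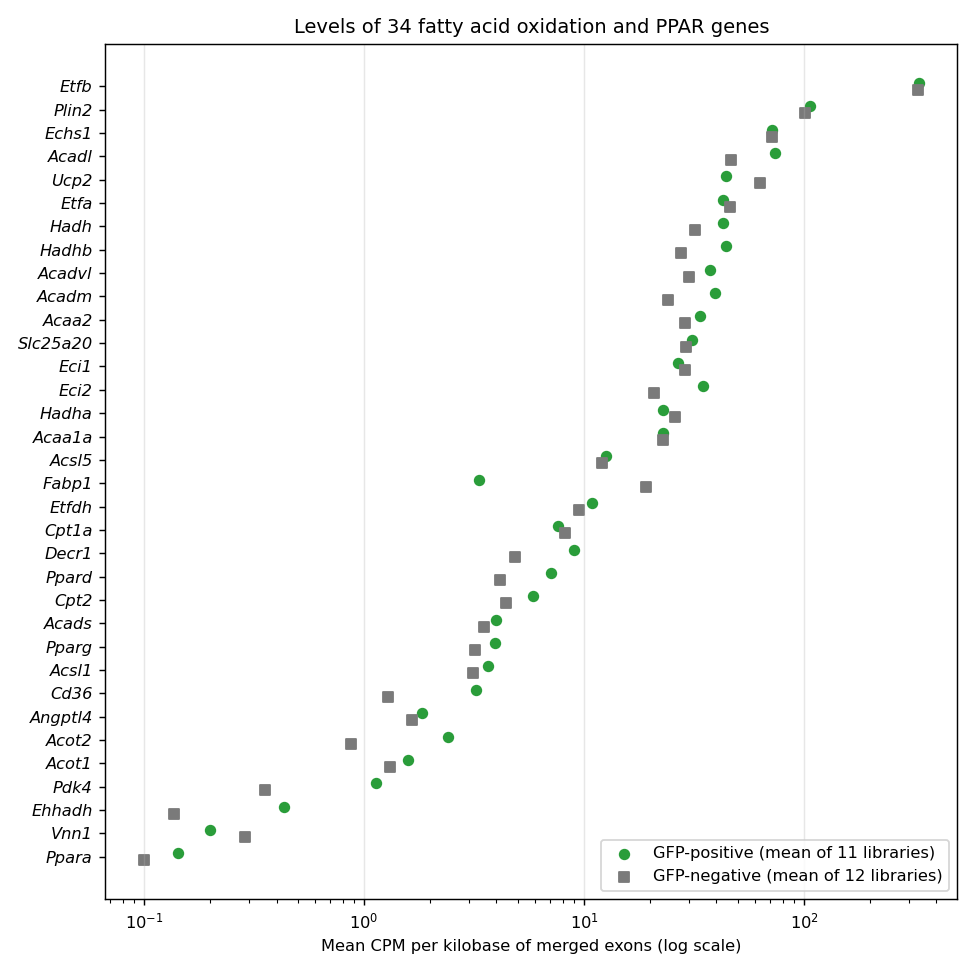
Mean CPM per kilobase of merged exons (log scale, horizontal axis) of the 34 genes, with GFP-positive and GFP-negative means as separate points, ordered by the mean over all 23 libraries. Etfb stands at the top with 332 and Ppara at the bottom with 0.120 CPM per kilobase.

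No member passed the test between GFP-positive and GFP-negative libraries. Of the 34 members, 22 passed the filter on low counts, and none of the 22 was called (edgeR's quasi-likelihood test, Benjamini-Hochberg adjusted p under 0.05), beside 1 of 6621 tested genes (0.0151%). At an unadjusted p under 0.05, 1 of the 22 members passed, Acadl, beside 4.95% of all tested genes, and DESeq2 called 0 members and 24 genes. Log2 fold changes ran from -0.39 to 0.80, with 16 above 0 and 6 below and a median of 0.14, beside 0.07 over all tested genes, of which 58.5% lay above 0. For 17 of the 22 members the 95% interval lay within a change of 1 on the log2 scale in either direction. The values of the groups overlapped for every member, and the share of all genes without overlap was not counted. Without the 4 libraries under 100000 counts, no member was called. The log2 fold changes (edgeR) were then 0.30 for Acadl (SE 0.19), 0.29 for Hadhb (SE 0.23), 0.23 for Ppard (SE 0.40) and -0.20 for Ucp2 (SE 0.20). They were 0.78 for Decr1 (SE 0.43), 0.49 for Hadh (SE 0.33), 0.47 for Acadm (SE 0.34) and 0.36 for Etfb (SE 0.20). In a bulk sample, fewer cells of a type and less RNA per cell cannot be told apart. The other 12 members (Ppara, Pparg, Cd36, Fabp1, Acot1, Acot2, Cpt2, Acads, Ehhadh, Pdk4, Angptl4 and Vnn1) summed to 14 to 355 counts each over all libraries and carry no test.

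**Figure D2:**
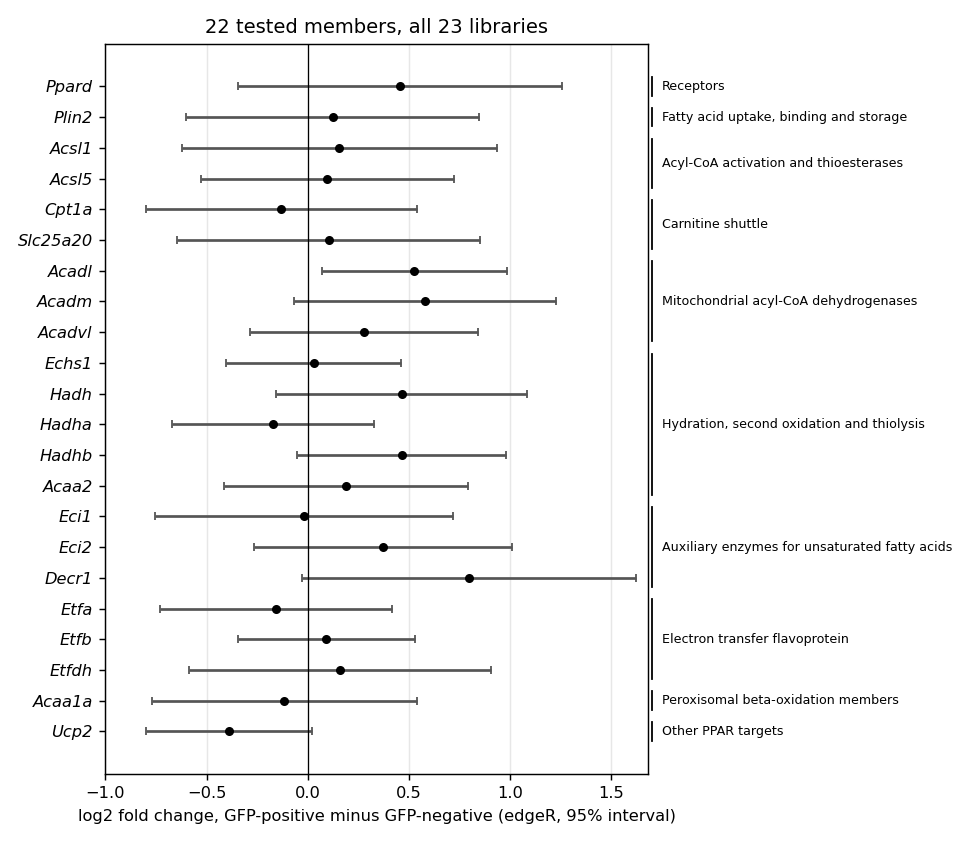
Log2 fold change of each of the 22 tested genes, GFP-positive minus GFP-negative, with its 95% interval from edgeR over 23 libraries. The estimates run from -0.39 to 0.80 and 1 interval, that of Acadl, leaves out 0.

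Among the receptors, Ppard, the widely expressed PPAR-delta, was the only gene with enough counts for the test. Ppard had 5.83, 16.9 and 80.8 CPM in GFP-positive libraries and 0, 9.26 and 49.0 CPM in GFP-negative libraries (lowest, median, highest). The groups overlapped, and the highest values of both rest on 3 and 5 counts, in GFP-positive 4 and GFP-negative 11. Its log2 fold change was 0.45 (edgeR, SE 0.41, Benjamini-Hochberg adjusted p = 0.997). Pparg, the receptor of adipocyte differentiation that colonic epithelium also expresses, had 0, 9.17 and 18.4 CPM in GFP-positive libraries and 0, 4.02 and 38.1 CPM in GFP-negative libraries. Ppara, the receptor that drives fatty acid oxidation in fasting liver, was near the detection limit. It had 11 counts in the GFP-positive libraries and 3 counts in the shallower GFP-negative libraries. Scaled for depth as in the edgeR test, its mean was 0.530 CPM in GFP-positive and 0.375 CPM in GFP-negative libraries. Ppara was at 0 in 6 of 11 GFP-positive libraries and 11 of 12 GFP-negative libraries. Per kilobase, Ppard exceeded Ppara in 20 of 23 libraries and was never below it, whereas Ppard exceeded Pparg in 14 libraries and fell short of it in 6.

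The genes of uptake and storage split into a high and a near-absent part. Plin2, which coats lipid droplets, had 98.9, 151 and 672 CPM in GFP-positive libraries and 52.0, 142 and 559 CPM in GFP-negative libraries. Its means were 201 ± 165 CPM over the 11 GFP-positive libraries and 190 ± 137 CPM over the 12 GFP-negative libraries (± SD), and its log2 fold change was 0.12 (edgeR, SE 0.37). The value of 672 CPM belongs to GFP-positive 3, and without that library the GFP-positive range was 98.9 to 296 CPM and the log2 fold change was -0.37 (edgeR, SE 0.27, Benjamini-Hochberg adjusted p = 0.890). Cd36, a fatty acid transporter that macrophages, adipocytes and endothelium also use, had 0, 4.66 and 53.9 CPM in GFP-positive libraries and 0, 0 and 21.2 CPM in GFP-negative libraries. The 53.9 CPM of GFP-positive 4 are 2 counts, and the values next below it were 26.9 CPM in GFP-positive 3 and 23.8 CPM in GFP-positive 1, with 21.2 CPM in GFP-negative 1. Identifier 3034, which holds both GFP-positive 1 and GFP-negative 1, also held the highest sum of 6 adipocyte markers in each group, 280 CPM in GFP-positive 1 and 358 CPM in GFP-negative 1, with Plin1 at 0 in all libraries. The part of other cells in Cd36 was not tested. Fabp1, the liver-type fatty acid binding protein of absorptive enterocytes, was at 0 in 7 of 11 GFP-positive and 8 of 12 GFP-negative libraries. Its highest values were 9.22 CPM in GFP-positive libraries and 115 CPM in GFP-negative libraries; that of GFP-negative 12 is 8 counts. Both Fabp1 and Plin2 hold a motif match in the promoters shown, at these very different levels.

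**Figure D3:**
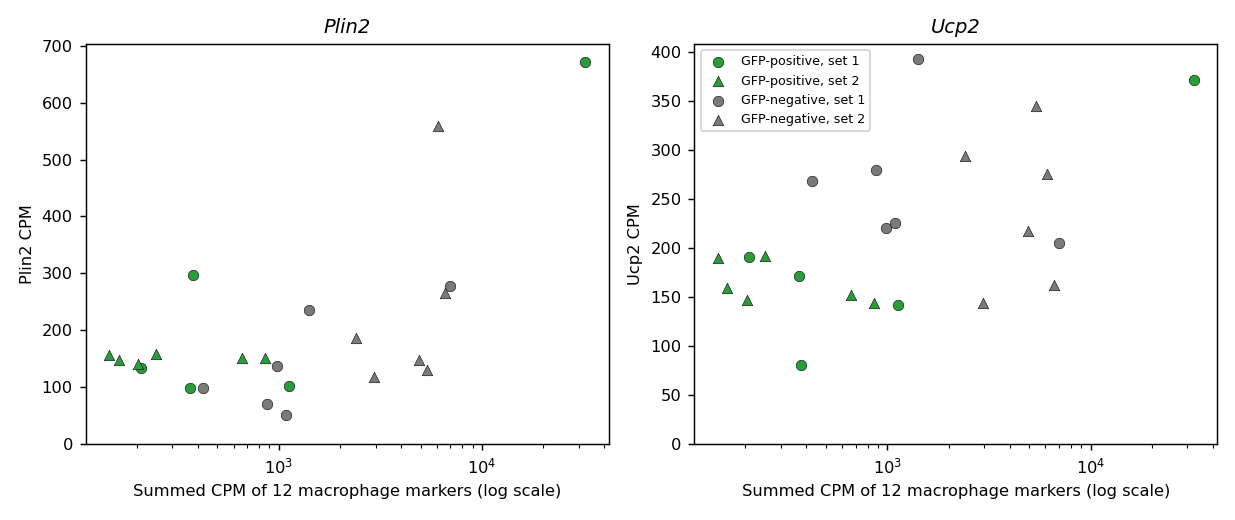
CPM of Plin2 and Ucp2 (vertical axes) against the summed CPM of 12 macrophage markers (log scale, horizontal axis), with 1 point per library and circles for set 1, triangles for set 2. GFP-positive 3, at 32172 CPM of macrophage markers, holds the highest GFP-positive values of both genes, 672 and 371 CPM.

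Activation to acyl-CoA was represented by Acsl5, the synthetase known from intestine, and Acsl1, known from liver, fat and muscle. Per kilobase, Acsl5 exceeded Acsl1 in 20 of 23 libraries. Acsl5 averaged 53.4 ± 26.1 CPM over the 11 GFP-positive libraries and 51.4 ± 33.6 CPM over the 12 GFP-negative libraries (± SD), with a log2 fold change of 0.10 (edgeR, SE 0.32). Acsl1 had medians of 15.0 CPM in GFP-positive libraries and 12.5 CPM in GFP-negative libraries, and its estimate was 0.16 (SE 0.40). The thioesterases Acot1, in the cytosol, and Acot2, in mitochondria, release free acids again, and are near-identical neighbours on chromosome 12, so the division of reads between them is uncertain. Acot1 had medians of 3.31 CPM in GFP-positive libraries and 0 CPM in GFP-negative libraries, and Acot2 had medians of 2.82 CPM in GFP-positive libraries and 0 CPM in GFP-negative libraries. Acot2 was at 0 in 1 of 11 GFP-positive and 9 of 12 GFP-negative libraries, on 43 counts in GFP-positive and 7 counts in the shallower GFP-negative libraries.

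All parts of the carnitine shuttle were expressed. Cpt1a, which attaches carnitine at the outer membrane and is the rate-limiting entry, had 0, 28.8 and 89.2 CPM in GFP-positive libraries and 0, 29.6 and 78.4 CPM in GFP-negative libraries. The groups overlapped over nearly their whole ranges, and the log2 fold change was -0.13 (edgeR, SE 0.34). Slc25a20, the carrier that exchanges acylcarnitine across the inner membrane, had medians of 43.8 CPM in GFP-positive libraries and 38.8 CPM in GFP-negative libraries. It was higher per kilobase than Cpt1a in 19 of 23 libraries and had a log2 fold change of 0.10 (edgeR, SE 0.38). Cpt2, which removes the carnitine inside, had a median of 13.8 CPM in GFP-positive libraries and 8.18 CPM in GFP-negative libraries.

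The acyl-CoA dehydrogenases, which take the first step, all had estimates above 0 where they were tested (3 of 4), and none passed the test. Acadl, the long-chain enzyme, had 84.1, 123 and 350 CPM in GFP-positive libraries and 17.3, 92.8 and 152 CPM in GFP-negative libraries. Most GFP-positive values lay in the upper part of the GFP-negative range, and the extremes on both sides, 350 CPM in GFP-positive 4 and 17.3 CPM in GFP-negative 4, came from libraries under 100000 counts. The means were 142 ± 74.9 CPM over the 11 GFP-positive libraries and 89.0 ± 34.1 CPM over the 12 GFP-negative libraries (± SD). The log2 fold change of Acadl was 0.53 (95% interval 0.07 to 0.98, edgeR unadjusted p = 0.0297, Benjamini-Hochberg adjusted p = 0.992). Without the libraries under 100000 counts the ranges were 84.1 to 170 CPM in GFP-positive libraries and 65.2 to 152 CPM in GFP-negative libraries. Acadm, the medium-chain enzyme, had 33.8, 72.7 and 135 CPM in GFP-positive libraries and 0, 46.3 and 106 CPM in GFP-negative libraries, with a log2 fold change of 0.58 (edgeR, SE 0.33, Benjamini-Hochberg adjusted p = 0.997). Acadvl, the membrane-bound enzyme for very long chains, had 0, 89.2 and 116 CPM in GFP-positive libraries and 9.80, 61.9 and 123 CPM in GFP-negative libraries, with a log2 fold change of 0.28 (SE 0.29). Acads, the short-chain enzyme, had medians of 8.97 CPM in GFP-positive libraries and 7.30 CPM in GFP-negative libraries. Acadl was the highest of these per kilobase, above Acadvl in 20 and above Acadm in 21 of 23 libraries, while Acadm exceeded Acads in 21 and Acadvl and Acadm could not be ordered. The sum of the 4 genes was 311 ± 59.7 CPM over the 11 GFP-positive libraries and 210 ± 78.9 CPM over the 12 GFP-negative libraries (± SD), and GFP-positive cells had the higher sum in 9 of 10 identifiers, and in 7 of the 8 without a library under 100000 counts. The summed level of T and B cell markers was also higher in GFP-positive cells in 9 of 10 identifiers, with 108 to 783 CPM in GFP-positive libraries and 52.0 to 465 CPM in GFP-negative libraries. Of these markers Cd3e, Cd3g, Cd79a and Ms4a1 were at 0 in all libraries, and the part of such cells in the sums of the members was not tested.

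**Figure D4:**
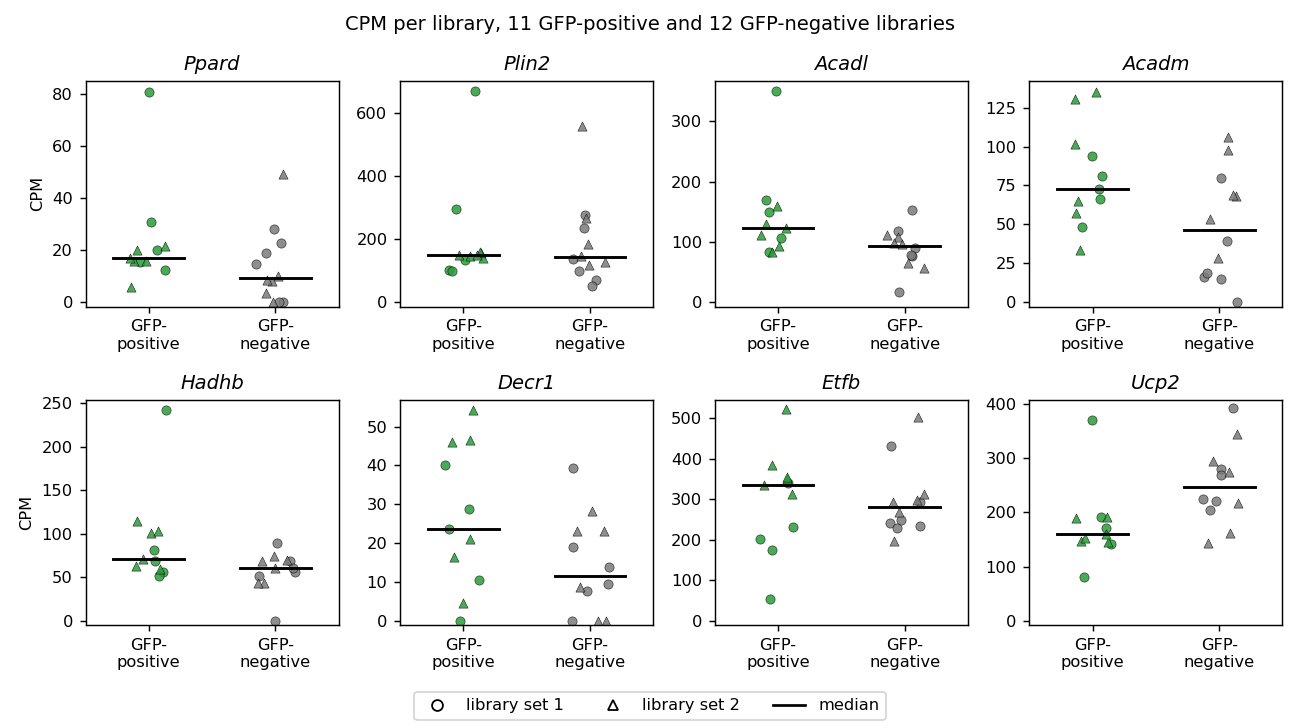
CPM per library of 8 genes in 11 GFP-positive and 12 GFP-negative libraries, with 1 point per library (circles set 1, triangles set 2) and the median as a line. The groups overlap in all 8 panels, and GFP-positive 4 gives the highest point of Acadl (350 CPM) and Hadhb (242 CPM).

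All 5 members of the later steps were tested, 4 had estimates above 0 and none was called. Echs1, the hydratase of short chains, averaged 111 ± 32.5 CPM over the 11 GFP-positive libraries and 111 ± 38.8 CPM over the 12 GFP-negative libraries (± SD), with a log2 fold change of 0.03 (95% interval -0.40 to 0.46, edgeR). Hadh, the short-chain hydroxyacyl-CoA dehydrogenase, had 12.8, 68.5 and 164 CPM in GFP-positive libraries and 23.5, 62.6 and 86.1 CPM in GFP-negative libraries. Its log2 fold change was 0.46 (edgeR, SE 0.32), and it stood below Echs1 per kilobase in all 23 libraries. Acaa2, the mitochondrial thiolase, had 0.19 (SE 0.31). Hadha and Hadhb encode the alpha and beta subunits of the trifunctional protein, which performs 3 steps on long chains, and lie head to head on chromosome 5 (Hadha at chr5:30118304-30155162 on the minus strand, Hadhb at chr5:30155248-30184593 on the plus strand, mm10). Their estimates had opposite signs. Hadhb had 51.0, 70.7 and 242 CPM in GFP-positive libraries and 0, 60.5 and 89.0 CPM in GFP-negative libraries, and a log2 fold change of 0.46 (edgeR, SE 0.26, Benjamini-Hochberg adjusted p = 0.997). The 242 CPM of GFP-positive 4 are 9 counts. Hadha had 68.3, 84.9 and 154 CPM in GFP-positive libraries and 31.8, 85.3 and 201 CPM in GFP-negative libraries, and a log2 fold change of -0.17 (edgeR, SE 0.26). The difference between the 2 subunits was not tested. Per kilobase, Hadhb exceeded Hadha in 17 of 23 libraries.

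Of the auxiliary enzymes for unsaturated chains, Decr1, the dienoyl-CoA reductase, had the highest estimate of the tested members. Decr1 had 0, 23.6 and 54.2 CPM in GFP-positive libraries and 0, 11.7 and 39.3 CPM in GFP-negative libraries. Its log2 fold change was 0.80 (95% interval -0.03 to 1.62, edgeR, Benjamini-Hochberg adjusted p = 0.996), and 1 GFP-positive and 3 GFP-negative libraries were at 0. The isomerases Eci1 and Eci2, which move double bonds into the position the hydratase needs, had log2 fold changes of -0.02 (SE 0.38) and 0.37 (SE 0.33). Eci2 had 22.5, 46.2 and 189 CPM in GFP-positive libraries and 0, 36.3 and 75.9 CPM in GFP-negative libraries, the 189 CPM being 7 counts in GFP-positive 4. Eci1 and Eci2 stood level per kilobase, with Eci1 higher in 12 libraries and Eci2 in 11.

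The electron transfer flavoprotein was unequal in its transcripts. Etfb, the beta subunit, had 53.9, 335 and 523 CPM in GFP-positive libraries and 196, 280 and 503 CPM in GFP-negative libraries. The 53.9 CPM are 2 counts in GFP-positive 4, and the 503 CPM are 35 counts in GFP-negative 12. The means of Etfb were 297 ± 125 CPM over the 11 GFP-positive libraries and 296 ± 88.5 CPM over the 12 GFP-negative libraries (± SD). Its log2 fold change was 0.09 (95% interval -0.34 to 0.53, edgeR), and 0.36 (edgeR, SE 0.20) without the libraries under 100000 counts. Etfb was 7.42-fold higher than Etfa, the alpha subunit of the same dimer, in mean CPM per kilobase, and was the higher in 22 of 23 libraries. Etfa in turn exceeded Etfdh, which passes the electrons to ubiquinone, in 22 of 23 libraries. Etfa had medians of 57.6 CPM in GFP-positive libraries and 64.8 CPM in GFP-negative libraries. Etfa had a log2 fold change of -0.16 (SE 0.29) and Etfdh of 0.16 (SE 0.38).

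Of the peroxisomal members, only Acaa1a passed the filter. It is the peroxisomal thiolase and averaged 40.2 ± 17.7 CPM over the 11 GFP-positive libraries and 40.2 ± 26.1 CPM over the 12 GFP-negative libraries (± SD). Its log2 fold change was -0.12 (edgeR, SE 0.33), and its reads may be shared with the near-identical Acaa1b. Ehhadh is the bifunctional enzyme and a strong PPAR-alpha target in liver. It had 25 counts in the GFP-positive libraries and 4 counts in the shallower GFP-negative libraries. Scaled for depth as in the edgeR test, its mean was 1.34 CPM in GFP-positive and 0.432 CPM in GFP-negative libraries. Acaa1a exceeded Ehhadh per kilobase in 22 of 23 libraries.

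Among the other PPAR targets, Ucp2, a carrier of the inner mitochondrial membrane abundant in immune cells, had the lowest estimate of the tested members. Ucp2 had 80.8, 160 and 371 CPM in GFP-positive libraries and 144, 247 and 393 CPM in GFP-negative libraries, with means of 177 ± 71.9 CPM in GFP-positive (SD, n = 11) and 253 ± 71.7 CPM in GFP-negative libraries (SD, n = 12). GFP-positive 3 gave the 371 CPM, and the other 10 GFP-positive libraries lay between 80.8 and 192 CPM. The log2 fold change was -0.39 (edgeR, SE 0.21, Benjamini-Hochberg adjusted p = 0.996), and without GFP-positive 3 it was -0.58 (edgeR, SE 0.19, unadjusted p = 0.00428, Benjamini-Hochberg adjusted p = 0.363). Macrophage marker sums were lower in GFP-positive than in GFP-negative cells in 9 of 10 identifiers and Ucp2 in 8 of 10. Within the GFP-negative libraries, the lowest macrophage sum, 424 CPM in GFP-negative 6, stood beside 269 CPM of Ucp2. The highest macrophage sum, 6974 CPM in GFP-negative 1, stood beside 205 CPM of Ucp2. The part of macrophage RNA in the level of Ucp2 was not tested. Pdk4, the kinase that shuts pyruvate out of oxidation, had 0, 1.41 and 24.1 CPM in GFP-positive libraries and 0, 0 and 7.06 CPM in GFP-negative libraries, with 41 of its 101 GFP-positive counts in GFP-positive 10. Angptl4, a secreted inhibitor of lipoprotein lipase, reached 19.3 CPM in GFP-positive 1 and 20.5 CPM in GFP-negative 9, with medians of 1.89 CPM in GFP-positive libraries and 0.651 CPM in GFP-negative libraries. Vnn1, a pantetheinase, had 12 counts in the GFP-positive libraries and 9 counts in the shallower GFP-negative libraries. Scaled for depth as in the edgeR test, its mean was 0.513 CPM in GFP-positive and 0.734 CPM in GFP-negative libraries.

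Within the library sets no member was called either. In set 1, 0 of 18 tested members passed (edgeR, Benjamini-Hochberg), beside 0 of 5256 genes (0%), and 1 member, Acadm, had an unadjusted p under 0.05, beside 284 genes (5.4%). In set 1 Acadm had a log2 fold change of 1.02 (edgeR, SE 0.49, adjusted p = 0.894), and in set 2 of 0.28 (SE 0.38). Without GFP-positive 3, set 1 gave 0 of 17 tested members, beside 1 of 4400 genes (0.0227%), and the members' median log2 fold change was 0.0081, against 0.13 with that library. The unadjusted p of Acadm was then 0.0884, with a log2 fold change of 0.92 (edgeR, SE 0.52), and Ucp2 was the 1 member with an unadjusted p under 0.05 (-0.78, SE 0.30, Benjamini-Hochberg adjusted p = 0.494), beside 7.3% of genes. In set 2, 0 of 23 tested members passed, beside 89 of 6952 genes (1.28%), and none had an unadjusted p under 0.05, beside 6.88% of genes. Plin2 had a log2 fold change of 0.93 in set 1 (edgeR, SE 0.63), which was -0.14 (SE 0.44) without GFP-positive 3, and of -0.57 in set 2 (SE 0.31). In set 2 it was 151 ± 6.18 CPM over the 6 GFP-positive libraries and 235 ± 168 CPM over the 6 GFP-negative libraries (± SD). GFP-negative 10 had 559 CPM and the other 5 GFP-negative libraries lay between 118 and 266 CPM, with a mean of 170 ± 59.9 CPM (SD). Without GFP-negative 10 the log2 fold change of Plin2 in set 2 was -0.15 (edgeR, SE 0.26). The difference between the sets, set 2 minus set 1, was -1.53 for Plin2 on the log2 scale (edgeR interaction, SE 0.70, unadjusted p = 0.0390, Benjamini-Hochberg adjusted p = 0.762), and this difference was computed with both GFP-positive 3, which belongs to set 1, and GFP-negative 10, which belongs to set 2.

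The populations were also compared within the 10 identifiers. This comparison is descriptive, as the labels do not say what an identifier marks. Identifier 61-1 joins GFP-positive 2 of set 1 with GFP-positive 7 and GFP-negative 8 of set 2. In 6 of the 10 identifiers every GFP-positive total count lay above every GFP-negative total count. Hadhb was higher in GFP-positive cells in all 10 identifiers, by 0.128 to 216 CPM with a median of 16.1 CPM, and by at most 40.3 CPM in the 8 identifiers without a library under 100000 counts. Of the 6621 tested genes, 10 (0.151%) were higher in all 10 identifiers. Acadl and Decr1 were higher in 8 of 10, which held for 3 of the 22 tested members with Hadhb included and for 7.54% of tested genes, and Ucp2 was lower in 8 of 10, as were 4.49% of tested genes. The summed level of the 18 genes of the carnitine shuttle, the spiral, the auxiliary enzymes and the electron transfer flavoprotein was 985, 1283 and 1781 CPM in GFP-positive libraries and 728, 1216 and 1431 CPM in GFP-negative libraries. GFP-positive cells had the higher sum in 8 of 10 identifiers, and in 6 of the 8 identifiers without a library under 100000 counts. Fibroblast marker sums were lower in GFP-positive cells in 9 of 10 identifiers, like those of macrophages, and their part in the sums of the members was not tested.

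**Figure D5:**
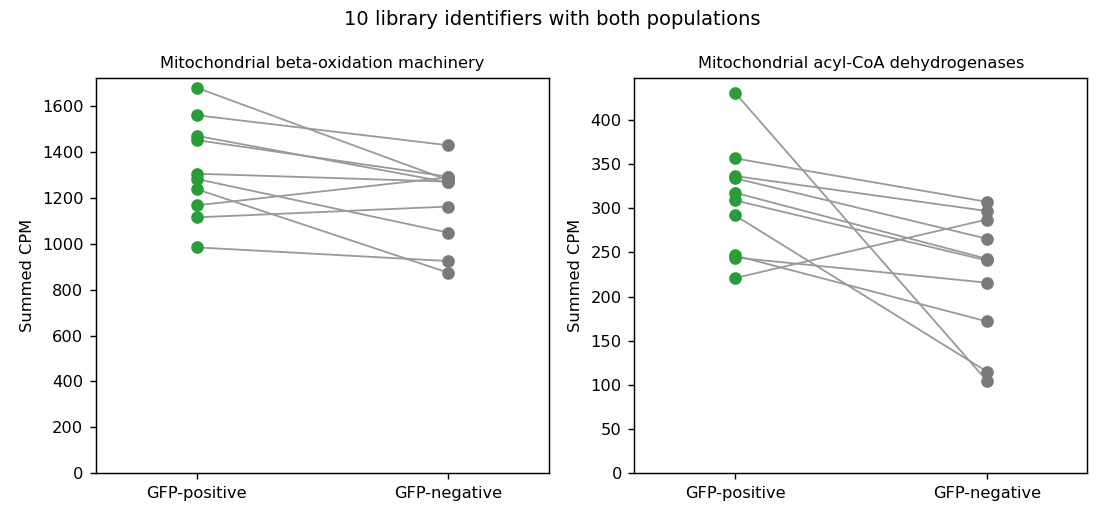
Summed CPM of 18 mitochondrial beta-oxidation genes and of the 4 acyl-CoA dehydrogenases in GFP-positive and GFP-negative cells, with a line joining the populations of each of 10 identifiers (libraries of 1 identifier and population averaged). The sum of 18 genes is higher in GFP-positive cells in 8 identifiers and that of the dehydrogenases in 9.

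Of 79 further genes of ketone body metabolism, peroxisomal oxidation, fatty acid uptake, other acyl-CoA dehydrogenases, PPAR partners and further PPAR targets, 37 were tested over all libraries. None of the 37 was called (edgeR, Benjamini-Hochberg), beside 0.0151% of all tested genes. Estimates lay above 0 for 25 of them, beside 58.5% of all tested genes. At an unadjusted p under 0.05 there was 1 of the 37, Fabp5, beside 4.95% of all tested genes. Fabp5 had a log2 fold change of -1.46 (edgeR, SE 0.46, Benjamini-Hochberg adjusted p = 0.730). Median log2 fold changes were 0.05 for 4 ketone genes, 0.19 for 8 peroxisomal genes, -0.11 for 8 uptake genes, 0.27 for 4 dehydrogenases, 0.22 for 7 partners and 0.30 for 6 targets. The most expressed tested genes of these lists were Acat1 (0.24, SE 0.31), Scp2 (0.25, SE 0.25), Dbi (-0.10, SE 0.18), Hsd17b10 (0.26, SE 0.24), Nrip1 (0.59, SE 0.32) and Klf10 (0.53, SE 0.27). Of these, Dbi binds acyl-CoA esters in the cytosol, and Nrip1 is a corepressor of nuclear receptors. In set 2, 40 of the genes were tested and 1 was called, beside 89 of 6952 genes (1.28%). It was Fabp5, the epidermal-type fatty acid binding protein that macrophages also express. Fabp5 had 7.98, 17.4 and 23.3 CPM in the 6 GFP-positive libraries of set 2 and 32.0, 51.3 and 216 CPM in its 6 GFP-negative libraries, without overlap. The share of all genes without overlap in set 2 was not counted. Fabp5 fell by 2.08 on the log2 scale (edgeR, SE 0.49, Benjamini-Hochberg adjusted p = 0.0223). In the same libraries all 9 tested macrophage markers had estimates below 0 and 8 of them were called, with a median log2 fold change of -3.66 over the 9, and macrophage sums were 147 to 861 CPM in GFP-positive and 2412 to 6575 CPM in GFP-negative libraries. All 7 tested fibroblast markers had estimates below 0 too, with 4 called and a median of -3.00, and fibroblast sums were 169 to 991 CPM in GFP-positive and 1150 to 8818 CPM in GFP-negative libraries. The 3 tested endothelial markers had a median of -1.22, with none called. The part of RNA from these cells in the fall of Fabp5 was not tested. In set 1 Fabp5 had a log2 fold change of -0.54 (edgeR, SE 0.88), and the difference between the sets was not tested for it.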

How the data were processed

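Bulk RNA of sorted cells was sequenced as poly(A)-selected, strand-specific libraries (NEBNext Ultra II Directional, per the labels' protocols). The authors deposited expected counts per gene, which were whole numbers; the submitters' processing notes name Salmon 1.3.0 and mm10. As Salmon splits shared reads by a model, near-identical genes are uncertain, and which transcript annotation it used is not given in the sources used here.

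Libraries were grouped by the labelled cell type. Fold changes (GFP-positive minus GFP-negative) were fitted on all genes with edgeR 4.0.16 (R 4.3.3), using its filterByExpr filter, TMM factors, the robust form of the quasi-likelihood test and Benjamini-Hochberg adjustment at 0.05. DESeq2 1.42.0, other filters and scalings, blocks, library sets and left-out libraries were alternatives. Intervals are 1.96 SE wide on each side. Exon lengths and positions came from GENCODE M21. The scripts were tested on simulated data.

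Nothing in the labels says that libraries came from separate mice, so p-values measure the spread between libraries, which may be technical. No within-group pair of libraries (121 pairs) agreed within sampling noise. Floors cover counting error only, because reads were counted without molecular identifiers. Joined forms of an identifier were treated as 1, and libraries of an identifier and population were averaged. The members and lists were chosen with earlier results of these data known. Named in full were the receptors, the members with the smallest p and the most expressed; for other lists, called genes or the most expressed gene.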

Additional observations from a re-analysis of the deposited data

Results flagged for a closer look

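In 12 of 67 groups of libraries examined (the members named in full and their sums, by population and library set), 1 library lay far from the rest by Dixon's test. Its limit is passed by about 1 in 20 groups of normally distributed values. CPM of few counts and unequal depth are not such values, so the number of flags cannot be set against that rate. The receptors gave 6 of these. Ppara had 2.35 CPM in GFP-positive 10 (4 counts), where the next GFP-positive library of set 2 had 0.512 CPM. It had 4.25 CPM in GFP-negative 7 (3 counts), where the other GFP-negative libraries of set 2 were at 0. Ppard had 80.8 CPM in GFP-positive 4 (3 counts), 5.83 CPM in GFP-positive 9, which was the lowest of its group with 15.9 CPM next, and 49.0 CPM in GFP-negative 11 (5 counts). Pparg had 38.1 CPM in GFP-negative 2 (5 counts), with 12.7 CPM next.

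GFP-positive 4, with 37125 counts in all, also had 242 CPM of Hadhb (9 counts, next 81.3 CPM) and 189 CPM of Eci2 (7 counts, next 59.5 CPM). Etfb had 523 CPM in GFP-positive 7, with 384 CPM next, and 432 CPM in GFP-negative 5 (11 counts), with 294 CPM next. Plin2 had 559 CPM in GFP-negative 10 (65 counts), with 266 CPM next. The sum of all 34 members was 1091 CPM in GFP-negative 4, below the next value of 1589 CPM.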

How the results depend on the processing

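In none of 64 fits, including the 33 alternatives over all libraries, 13 in set 1 and 14 in set 2, was a member called, and the smallest adjusted p of a member over all libraries ran from 0.297 to 1.00. The members' median log2 fold change was 0.08 to 0.27. Leaving out 1 library at a time gave 0 members called in every case, with log2 fold changes of -0.370 to 0.383 for Plin2, -0.0767 to 0.103 for Echs1 and -0.0351 to 0.197 for Etfb. Of the 22 tested members, 13 kept the sign of their estimate in each of the 33 alternatives over all libraries that tested them and 9 did not. The sign of Plin2 turned without GFP-positive 3 (-0.37), with the replicate block by title number (-0.045), with the block by identifier (-0.093), with that block and without GFP-positive 3 (-0.41), and without libraries under 100000 counts and GFP-positive 3 (-0.53). Echs1 turned under DESeq2 size factors (-0.049), the DESeq2 Wald test (-0.032), the title number block (-0.031), without libraries under 100000 counts (-0.022), in the identifier block without GFP-positive 3 (-0.0016) and without both kinds of library (-0.012). Etfb turned under DESeq2 size factors (-0.012) and in the identifier block without GFP-positive 3 (-0.0062), and Hadha under the title number block (0.031). Leaving out a single library also turned Echs1 and Etfb, as the ranges show. Among members given more briefly, Eci1 turned under 14 alternatives (0.0030 to 0.16), Acaa1a under 3 (0.0030 to 0.12), Slc25a20 under 3 (-0.064 to -0.00069), Etfa under the identifier block (0.010) and Cpt1a without GFP-negative 7 (0.039). The cause was not tested. Alternatives that join the removal of GFP-positive 3 with another choice were added after seeing the data.

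Over all genes, 1 was called as reported, 24 by DESeq2, 16 without GFP-positive 3, 0 with the title number block and 2 with the identifier block. Libraries sharing a title number deviated together (r over 0.1) in 2 of 11 pairs, and those sharing an identifier in 5 of 12. Pairs that share neither were not set beside them, so these counts do not settle which libraries belong together. Neither key was used to pair libraries in the reported test, and identifiers served only to count directions and differences. The labels do not say what an identifier marks. Under either replicate block 0 members were called and none had an unadjusted p under 0.05. With the identifier block, Acadl had a log2 fold change of 0.47 (edgeR, SE 0.26, unadjusted p = 0.0742) and Decr1 of 0.91 (SE 0.46, unadjusted p = 0.0527). Depth limits what can be seen: 12 members were too low for the test, and the SE of a log2 fold change was 0.21 to 0.42 for the other 22.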
